A study of Homo sapiens with 22 samples.

Results

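The genes described here encode neuropeptide precursors and proteins of dense-core granules, the vesicles in which neurons and endocrine cells store peptides. There are 10 of them, taken by gene symbol from a table of 34679 genes: PENK, VGF, CHGA, CHGB, SCG2, SCG3, SCG5, PCSK1, PCSK2 and CPE. Each symbol matched 1 row, and 8 of the 10 passed the filter on low counts and could be tested. SCG2 and PCSK1 did not pass it, so their counts are given without a test.

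The RNA came from LUHMES cells, a conditionally immortalised human mesencephalic line that is differentiated into neurons with dopaminergic features. Of the 6 groups, 4 crossed genotype with toxin in 4 libraries each: wild-type cells left untreated, wild-type cells given 6-hydroxydopamine (6-OHDA), untreated cells overexpressing alpha-synuclein, and such cells given 6-OHDA. In the other 2 groups, of 3 libraries each, alpha-synuclein cells received 6-OHDA together with quercetin, a plant flavonol, or with rutin, which is quercetin carrying a sugar. 6-OHDA is an oxidisable dopamine analogue used to injure dopaminergic cells, and the design text presents the exposure as a culture model of Parkinson disease. The sources used here name no dose, no exposure time, no promoter driving alpha-synuclein and no number of clones. They also do not say whether replicate libraries come from separate cultures, and the p-values therefore reflect the spread among these libraries alone, part or all of which may be technical.

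Neuropeptides are made as large precursors that enter the regulated secretory pathway. Granins such as chromogranin A and chromogranin B aggregate in the trans-Golgi and help granules form, the prohormone convertases PCSK1 and PCSK2 cut the precursors at pairs of basic residues, and carboxypeptidase E (CPE) trims the basic residues left behind. SCG5, also called 7B2, is the chaperone that PCSK2 needs to become active. PENK is the precursor of the enkephalins, which act on opioid receptors, and VGF is a neurotrophin-induced precursor of several secreted peptides.

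Genes of this system are textbook examples of control through the cyclic AMP response element (CRE), the palindrome TGACGTCA that CREB and ATF family proteins bind. The 250 bases before the start of each RefSeq transcript (GRCh38.p14) were searched for it, on both strands. Of the 10 genes, 7 had a window used here, which gave 9 windows. No window was used for PENK, SCG2 and CHGB, which were not searched. This does not show that these genes lack a window or the element. The full element was found in 3 of these 9 windows, each of a different gene. Of all 35116 promoter windows of the same length, 1.65% (578) held it. This comparison leaves out PENK, SCG2 and CHGB and was not tested. The 30 bases around each match are shown because these are the only full elements found, written along the gene's strand with the element in capitals.
VGF: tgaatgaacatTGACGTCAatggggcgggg
CHGA: ggcggcaccgcTGACGTCAtttccggggtc
PCSK1: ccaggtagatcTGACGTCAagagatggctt
The VGF stretch is chr7:101165630-101165659 on the minus strand, upstream of the gene in GENCODE 29, and its element begins 79 bases before the RefSeq start. The CHGA stretch is chr14:92923085-92923114 on the plus strand, with the element 54 bases before the RefSeq start, and the PCSK1 stretch is chr5:96433307-96433336 on the minus strand, 77 bases before it. Both lie inside the span that GENCODE 29 gives the gene, because that annotation starts further upstream. The element's first bases alone, TGACG, which 21.2% of all windows hold, also matched in SCG5, PCSK2 and CPE and not in SCG3. VGF held the letters of an antioxidant response element (TGACNNNGC, 10.9% of windows), PCSK1 those of a C/EBP-ATF element (TGATGCAA, 0.772%), and no window held an AP-1 site (TGANTCA, 6.57%). A match describes letters in these windows and was not tested as a binding site.

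Library totals ran from 1.866 to 20.67 M (M, mega) estimated counts, of which the 10 genes took 173 to 1328. Levels are given as counts per M of library counts (CPM), with library sizes scaled by the TMM method. A level of 3 counts, taken as the detection floor, corresponded to 0.168 to 1.49 CPM. The 4 libraries under 3 M counts were treated wild-type replicates 3 and 4, treated alpha-synuclein replicate 2 and rutin replicate 3. Untreated cells and treated wild-type cells were sequenced on lane 1 and the other 10 libraries on lane 2. Comparisons of treated alpha-synuclein cells with a lane 1 group therefore cannot be told apart from lane. Treated alpha-synuclein replicate 4 stood apart from its group. Its neuron markers summed to 7350 CPM against 5410 to 5760 CPM in the other 3 libraries, and its TMM factor was 0.948 against 1.086 to 1.115. Over 16601 genes its log2 CPM had a mean Pearson r of 0.966 with untreated alpha-synuclein libraries and 0.963 with its own group, where the other 3 had 0.925 to 0.936 and 0.955 to 0.963. It was also deeper, at 18.61 M counts against 2.521 to 5.409 M in the other 3 and 8.107 to 20.67 M in untreated alpha-synuclein libraries. The part of depth in these r values was not tested. For the 10 genes, results that rest on this replicate are given with and without it.

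**Figure D1:**
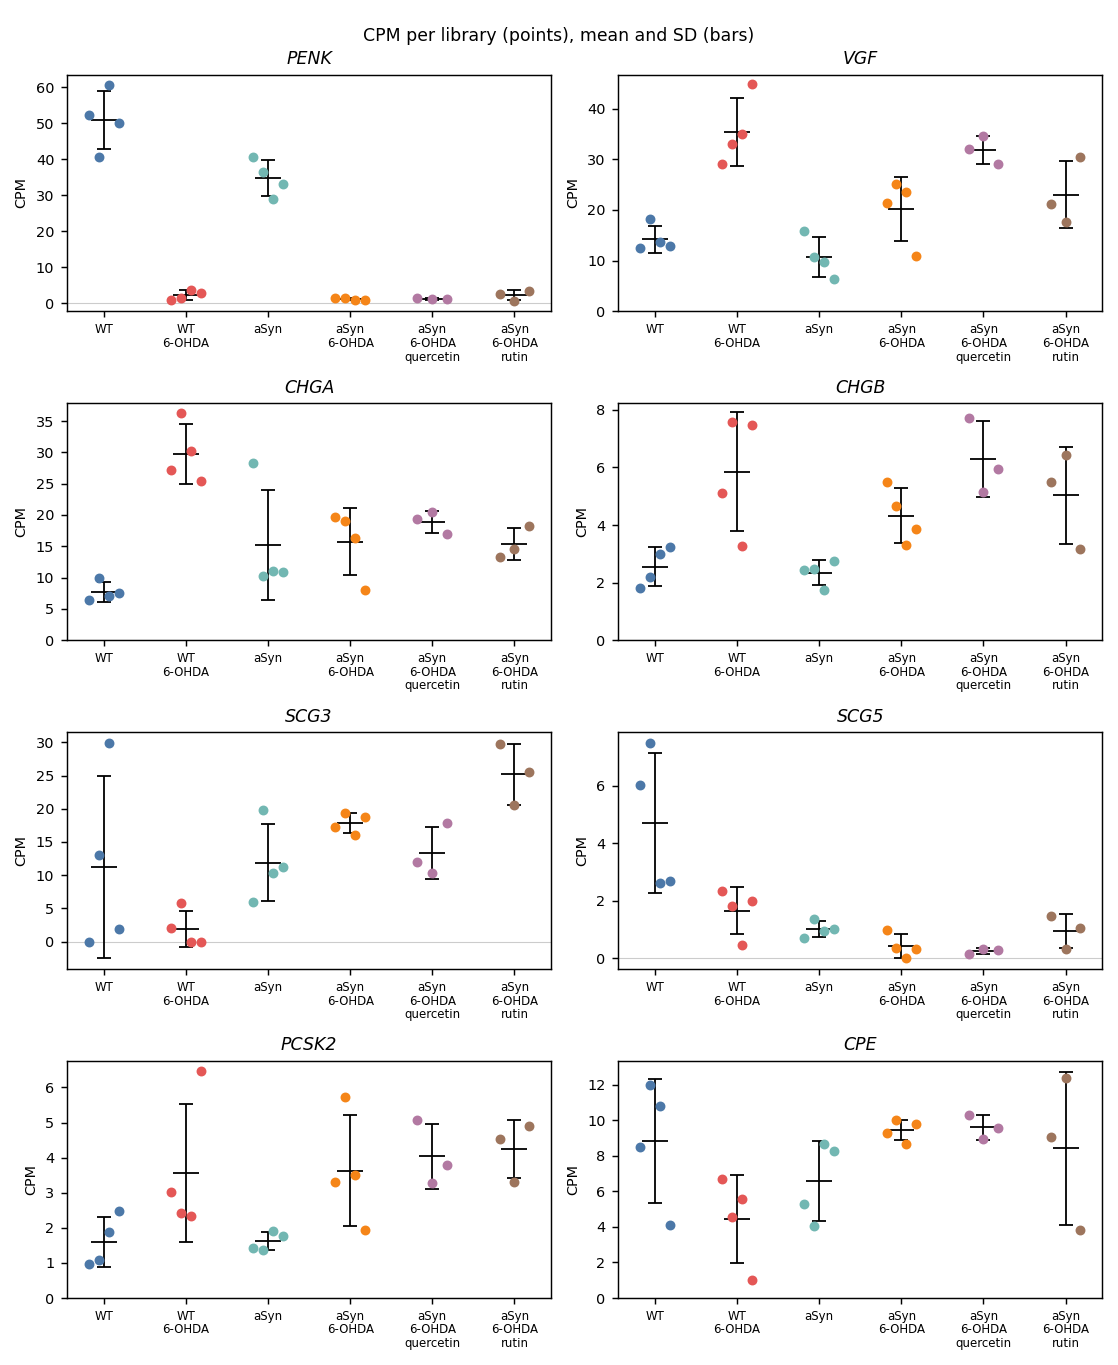
CPM of the 8 tested genes in each of the 22 libraries (points, in 6 groups), with the group mean (long bar) and SD (capped bar). PENK is at 28.9 to 60.5 CPM in untreated libraries and at 0.75 to 3.72 CPM in every library given 6-OHDA.

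PENK, the enkephalin precursor (ENSG00000181195.11, minus strand of chromosome 8, 56436674 to 56446734 in GRCh38), was nearly lost after 6-OHDA in both genotypes. In untreated wild-type replicates 1 to 4 it stood at 52.3, 40.7, 60.5 and 50.1 CPM, and after 6-OHDA at 0.979, 1.51, 3.72 and 2.98 CPM. Untreated alpha-synuclein libraries held 40.6, 36.4, 28.9 and 33.2 CPM, and treated ones 1.5, 1.44, 0.94 and 0.908 CPM. The treated libraries of both genotypes lay far below every untreated library, at 4 to 16 counts where untreated libraries had 223 to 581. PENK fell by 4.88 ± 0.32 (SE) on the log2 scale in wild-type cells, 29.5-fold lower (edgeR adjusted p = 9.12e-11). In alpha-synuclein cells it fell by 4.95 ± 0.32, 30.9-fold lower (adjusted p = 9.84e-11). Of 16601 genes tested, the PENK change was the 15th lowest in wild-type and the 11th lowest in alpha-synuclein cells. The interaction, which tests the difference between the 2 changes, was -0.07 ± 0.48 for PENK (95% interval -1 to 0.87, adjusted p = 0.953).

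Most neuron markers also fell after 6-OHDA. Their median log2 change was -0.94 in wild-type and -0.7 in alpha-synuclein cells, beside -4.88 and -4.95 for PENK. The 11 fixed neuron markers summed to 11700 to 12800 CPM in untreated and 5430 to 5910 CPM in treated wild-type libraries, with 9 of 11 called lower and 2 higher. In alpha-synuclein libraries the sum went from 9830 to 12100 CPM down to 5410 to 7350 CPM, with 7 called lower and 1 higher. Over all genes, 26.2% were called lower and 25.8% higher in wild-type cells, and 24.2% and 22.9% in alpha-synuclein cells. The part of this marker shift in the PENK result was not tested. In these bulk samples, fewer cells that express PENK and less PENK RNA per cell cannot be told apart. A share of 19% of the 31-base words in PENK transcripts is also found in AC012349.1, a gene on the opposite strand that was not analysed here, and the sources used here do not say whether strand was used in counting.

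Without 6-OHDA, PENK averaged 50.9 CPM ± 8.16 (SD, n = 4) in wild-type and 34.8 CPM ± 4.94 (n = 4) in alpha-synuclein cells. The highest alpha-synuclein library, at 40.6 CPM, was just under the lowest wild-type library, at 40.7 CPM. The difference of -0.55 ± 0.21 (interval -0.97 to -0.14) did not pass the test over all genes (adjusted p = 0.354). With 6-OHDA the genotypes differed in PENK by -0.62 ± 0.47 (interval -1.54 to 0.30, adjusted p = 0.363). Among the 4 treated groups PENK levels overlapped throughout, from 2.30 CPM ± 1.27 in wild-type cells to 1.19 CPM ± 0.314 in alpha-synuclein cells, with 2.27 CPM ± 1.40 (n = 3) under rutin and 1.26 CPM ± 0.257 (n = 3) under quercetin.

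VGF (ENSG00000128564.7, minus strand of chromosome 7, 101162509 to 101165593), also a peptide precursor, went the opposite way from PENK. Untreated wild-type libraries held 12.4, 18.2, 13.6 and 12.8 CPM and treated ones 29.1, 33, 34.9 and 44.8 CPM. Every treated wild-type library was above every untreated one. VGF rose by 1.29 ± 0.26 in wild-type cells, 2.45-fold (adjusted p = 2.67e-04). In alpha-synuclein cells the levels were 15.9, 10.7, 9.78 and 6.29 CPM without and 21.3, 25.1, 23.5 and 10.9 CPM with 6-OHDA. Replicate 4 of the treated cells lay among the untreated libraries and the other 3 lay above them. VGF rose by 0.90 ± 0.26 there (adjusted p = 0.00664), by 1.16 ± 0.24 without that replicate, and by 0.56 ± 0.29, no longer called (adjusted p = 0.133), without the 2 untreated libraries whose names carry 4 barcode numbers. The VGF response did not differ between genotypes past the threshold (-0.39 ± 0.37, interval -1.11 to 0.32, adjusted p = 0.491).

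With 6-OHDA in both genotypes, the 4 wild-type libraries averaged 35.4 CPM ± 6.66 for VGF and the 4 alpha-synuclein libraries 20.2 CPM ± 6.40 (SD). The groups did not overlap, and VGF was called at -0.84 ± 0.26 (adjusted p = 0.0189). Without treated alpha-synuclein replicate 4 the difference was -0.58 ± 0.24 and was not called (adjusted p = 0.0816). It was also lost without the 4 libraries under 3 M counts (-0.74 ± 0.32, adjusted p = 0.113), without treated wild-type replicate 3 (adjusted p = 0.0509) and without treated wild-type replicate 4 (adjusted p = 0.0869). In untreated cells the genotypes differed by -0.45 ± 0.26 for VGF (interval -0.95 to 0.06, adjusted p = 0.654).

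Chromogranin A, encoded by CHGA (ENSG00000100604.13, plus strand of chromosome 14, 92923080 to 92935293), was the 1 gene of the 8 tested whose response to 6-OHDA edgeR called different between genotypes. In wild-type libraries CHGA was at 6.37, 10.0, 7.10 and 7.46 CPM without and at 27.2, 36.3, 30.2 and 25.4 CPM with 6-OHDA. Every treated wild-type library was far above the highest untreated one. CHGA rose by 1.95 ± 0.31 in wild-type cells, 3.85-fold (adjusted p = 1.8e-05). Untreated alpha-synuclein libraries held 28.3, 10.3, 11.1 and 10.9 CPM and treated ones 19.6, 19.0, 16.4 and 8.0 CPM. Here the groups overlapped in both directions, since untreated replicate 1 was above all treated libraries and treated replicate 4 was below all untreated ones. The CHGA change was 0.05 ± 0.29 in alpha-synuclein cells (interval -0.52 to 0.62, adjusted p = 0.912).

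The interaction for CHGA was -1.9 ± 0.42 (interval -2.73 to -1.07, adjusted p = 0.00347), the 197th lowest of 16601 genes. It was -1.45 ± 0.32 without untreated alpha-synuclein replicate 1 (adjusted p = 0.00479), where the alpha-synuclein change itself became 0.50 ± 0.23 and was not called (adjusted p = 0.0823). Without treated alpha-synuclein replicate 4 the interaction was -1.62 ± 0.39 (adjusted p = 0.00566). Over all 24 alternatives it ran from -2.26 to -1.45 and was called in each. The CHGA interaction sets 1 lane 2 group against 3 lane 1 groups, so it cannot be told apart from lane. Of all genes tested, 21.6% were called in the interaction, and of the 8 tested granule genes 1 was.

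Treated alpha-synuclein cells held less CHGA than treated wild-type cells, 15.8 CPM ± 5.36 against 29.8 CPM ± 4.79 (n = 4 each), and no libraries overlapped. CHGA was called at -0.97 ± 0.30 (adjusted p = 0.0184). The call was lost without treated alpha-synuclein replicate 4 (-0.69 ± 0.28, adjusted p = 0.0792), without treated wild-type replicate 2 (-0.81 ± 0.33, adjusted p = 0.0848) and without the 4 shallow libraries (-1.10 ± 0.40, adjusted p = 0.0591). In untreated cells the order was the reverse, 15.1 CPM ± 8.78 in alpha-synuclein and 7.74 CPM ± 1.59 in wild-type cells. That difference of 0.93 ± 0.30 (interval 0.34 to 1.52) did not pass the test (adjusted p = 0.223), although every alpha-synuclein library was above every wild-type library.

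Chromogranin B, encoded by CHGB (ENSG00000089199.10, plus strand of chromosome 20, 5911430 to 5925361), was higher after 6-OHDA in both genotypes. Wild-type libraries held 1.8, 2.19, 2.99 and 3.24 CPM without and 5.12, 7.56, 3.26 and 7.46 CPM with 6-OHDA. Alpha-synuclein libraries held 2.43, 2.48, 1.73 and 2.74 CPM without and 5.48, 4.67, 3.29 and 3.86 CPM with it. In neither genotype did treated and untreated libraries overlap, though wild-type replicate 3 of the treated cells, a shallow library with 7 counts, was only just above. CHGB rose by 1.16 ± 0.29 in wild-type cells (adjusted p = 0.00185). In alpha-synuclein cells it rose by 0.87 ± 0.27 (adjusted p = 0.00977), a call lost without the 2 untreated libraries with several barcode numbers (0.80 ± 0.34, adjusted p = 0.0713). Between genotypes CHGB differed by -0.15 ± 0.28 without and -0.43 ± 0.28 with 6-OHDA, and neither was called (adjusted p = 0.935 and 0.273).

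Secretogranin III, encoded by SCG3 (ENSG00000104112.9, plus strand of chromosome 15, 51681353 to 51721031), binds chromogranin A and granule membranes. Its levels were uneven in wild-type cells. Untreated wild-type libraries held 0, 13.1, 29.9 and 1.84 CPM, from 0 to 160 counts, and treated ones 2.11, 5.75, 0 and 0 CPM. The 0 of untreated replicate 1 stood in a library of 6.788 M counts, no shallower than replicate 2 at 6.443 M. SCG3 was called lower by 6-OHDA in wild-type cells (-2.24 ± 0.88, adjusted p = 0.0381) with overlapping groups, and the call was lost under 8 of 17 alternatives, among them the loss of any 1 of untreated replicates 2 and 3 and of treated replicates 1, 3 and 4.

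In alpha-synuclein cells SCG3 was steadier, at 6.0, 19.8, 10.4 and 11.3 CPM without and 17.3, 19.4, 16.0 and 18.7 CPM with 6-OHDA. These groups overlapped, and the change of 0.56 ± 0.63 (interval -0.67 to 1.79) was not called (adjusted p = 0.481). With 6-OHDA in both genotypes, the lowest alpha-synuclein library, at 16.0 CPM, was above the highest wild-type library, at 5.75 CPM. SCG3 was called higher in alpha-synuclein cells by 2.97 ± 0.86, 7.83-fold (adjusted p = 0.0128). Without the 4 libraries under 3 M counts, which include both treated wild-type libraries at 0, the difference was 2.46 ± 1.06 and was not called (adjusted p = 0.115). The call was also lost without treated wild-type replicate 1 (2.91 ± 1.06, adjusted p = 0.0522). The interaction of 2.80 ± 1.09 was the 42nd highest of 16601 genes and missed the threshold (adjusted p = 0.0699), which it passed under 5 of 24 alternatives.

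**Figure D2:**
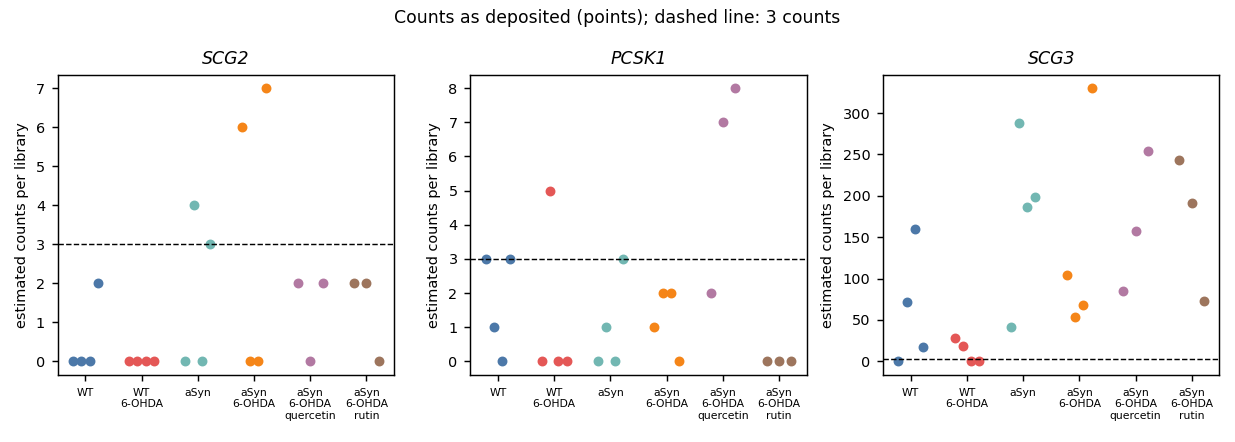
Estimated counts per library (points) of SCG2, PCSK1 and SCG3 in the 6 groups, with a dashed line at 3 counts. SCG2 reaches at most 7 and PCSK1 at most 8 counts, while SCG3 spans 0 to 330.

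Secretogranin II, encoded by SCG2 (ENSG00000171951.5, minus strand of chromosome 2, 223596940 to 223602503), is the precursor of secretoneurin and was close to undetected. It had 0 counts in 13 of 22 libraries and 30 counts in all, with a highest value of 7 in treated alpha-synuclein replicate 4. Treated wild-type libraries all had 0, which allows at most 3 counts in each, and no fold is given. SCG2 was above 3 counts in 3 libraries, all of alpha-synuclein cells.

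SCG5 (ENSG00000166922.8, plus strand of chromosome 15, 32641676 to 32697098), the chaperone of PCSK2, was lower in alpha-synuclein than in wild-type cells before any treatment. Wild-type libraries held 6.04, 7.48, 2.62 and 2.70 CPM and alpha-synuclein libraries 0.714, 1.38, 0.95 and 1.03 CPM. The groups did not overlap. SCG5 was called lower at -2.15 ± 0.43 on the log2 scale, 4.43-fold (adjusted p = 0.0177), and ranked 24th lowest of 16601 genes. It was the 1 call among the 8 tested genes in a comparison where 0.651% of all genes were called. The call was lost without any 1 of untreated wild-type replicates 1 and 2 and alpha-synuclein replicates 1, 3 and 4, with adjusted p of 0.055 to 0.0875, while the change stayed between -2.14 and -1.84. It was also lost when only the 2 groups were fitted (-2.15 ± 0.38, adjusted p = 0.0514), and without the 2 libraries with several barcode numbers (-2.06 ± 0.60, adjusted p = 0.411).

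With 6-OHDA, SCG5 counts were near the floor. Treated wild-type libraries held 31, 6, 1 and 4 counts (2.33, 1.81, 0.465 and 1.99 CPM) and treated alpha-synuclein libraries 6, 1, 0 and 6 counts (0.997, 0.359, 0 and 0.341 CPM). SCG5 fell by 1.34 ± 0.47 in wild-type cells (adjusted p = 0.0217), with no overlap, and the call was lost without the 4 shallow libraries (-1.14 ± 0.56, adjusted p = 0.109) or without untreated replicate 1, untreated replicate 2 or treated replicate 3. In alpha-synuclein cells the change was -1.23 ± 0.59 and was not called (adjusted p = 0.09), except without treated replicate 1 (-1.88 ± 0.67, adjusted p = 0.0299). The genotypes with 6-OHDA differed by -2.05 ± 0.62 (adjusted p = 0.0165), with overlapping libraries, and the call was lost without treated wild-type replicate 1 or treated alpha-synuclein replicate 4.

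Of the 2 convertases, PCSK1 (ENSG00000175426.11, minus strand of chromosome 5, 96390415 to 96434143) had 38 counts in all 22 libraries together and 0 in 10 of them. Its highest values were 8 and 7 counts in quercetin replicates 3 and 2, and rutin libraries all had 0. Treated wild-type replicate 2 had 5 counts and the other 3 libraries of that group 0. Quercetin libraries, at 0.281, 0.458 and 0.561 CPM, were thus above the rutin libraries listed at 0, whose floors of 3 counts stand at 0.322 to 1.05 CPM, and no test was made. The other pairs of groups compared overlapped.

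PCSK2 (ENSG00000125851.10, plus strand of chromosome 20, 17226107 to 17484578) was measured in every library. Wild-type libraries held 0.98, 1.09, 1.87 and 2.49 CPM without and 3.01, 2.42, 2.33 and 6.47 CPM with 6-OHDA, and the ranges touched, since 2 treated libraries were below the highest untreated one. Alpha-synuclein libraries held 1.43, 1.38, 1.9 and 1.77 CPM without and 3.32, 5.74, 3.52 and 1.93 CPM with it, with no overlap. PCSK2 rose by 1.00 ± 0.38 in wild-type cells (adjusted p = 0.0316), a call lost under 6 of 17 alternatives, such as without treated replicate 4 (0.68 ± 0.38, adjusted p = 0.144). In alpha-synuclein cells it rose by 1.00 ± 0.34 (adjusted p = 0.019), and the call was lost without treated replicate 2 (0.76 ± 0.34, adjusted p = 0.0791) and without the 4 shallow libraries (0.75 ± 0.32, adjusted p = 0.0651). The genotypes differed in PCSK2 by -0.02 ± 0.35 without and -0.02 ± 0.36 with 6-OHDA, with intervals of -0.71 to 0.68 and -0.73 to 0.68.

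CPE (ENSG00000109472.14, plus strand of chromosome 4, 165361194 to 165498320), the carboxypeptidase, was not called in any comparison with all libraries in the edgeR fit. Wild-type libraries held 8.49, 12.0, 10.8 and 4.11 CPM without and 6.7, 4.54, 5.58 and 0.995 CPM with 6-OHDA, the last from 2 counts. Alpha-synuclein libraries held 5.29, 4.06, 8.66 and 8.29 CPM without and 9.31, 10.0, 8.69 and 9.82 CPM with it. The wild-type groups overlapped, while each treated alpha-synuclein library was above each untreated one. The CPE change was -0.79 ± 0.38 in wild-type cells (adjusted p = 0.0826) and 0.51 ± 0.33 in alpha-synuclein cells (adjusted p = 0.215). With 6-OHDA the genotypes differed in CPE by 0.92 ± 0.38 (adjusted p = 0.0753), with every alpha-synuclein library above every wild-type library. Both calls were gained with DESeq2 (-0.88 ± 0.39, adjusted p = 0.0453, and 0.99 ± 0.39, adjusted p = 0.0362) and without treated wild-type replicate 1 (-1.20 ± 0.47, adjusted p = 0.0415, and 1.34 ± 0.47, adjusted p = 0.0443). The wild-type change was also called without untreated replicate 4 (-1.05 ± 0.36, adjusted p = 0.0187). For CPE the difference between the 2 genotypes' changes was 1.30 ± 0.50 (interval 0.32 to 2.28, adjusted p = 0.0681), and it was called under 4 of 24 alternatives, among them DESeq2 (1.40 ± 0.52, adjusted p = 0.029).

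**Figure D3:**
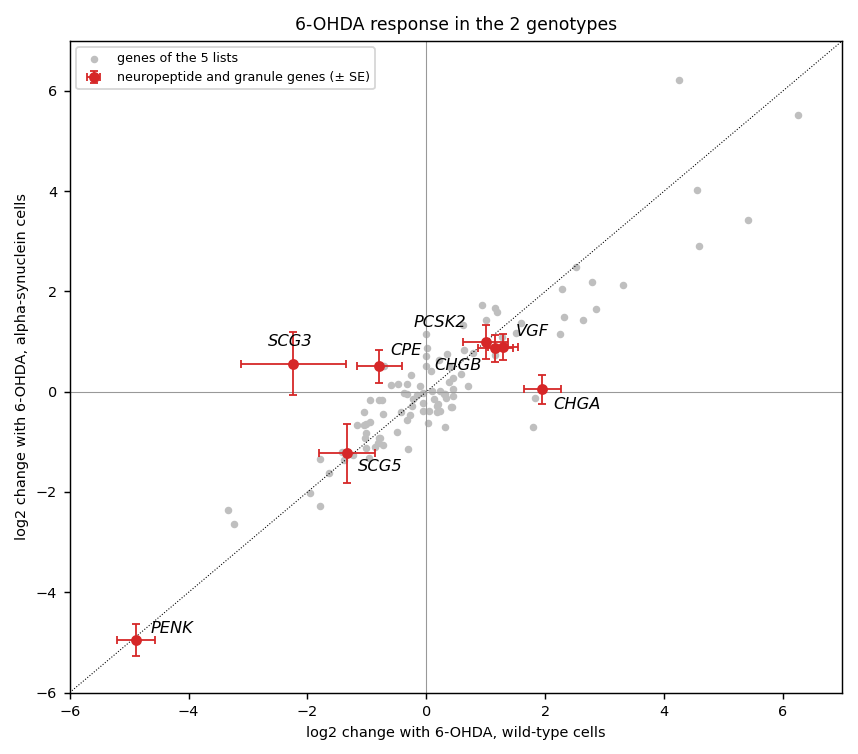
Log2 change with 6-OHDA in wild-type cells (x axis) and alpha-synuclein cells (y axis) for the 8 tested granule genes (red, with SE bars) and for genes of 5 related lists (grey), with the line of equal change dotted. PENK lies near the line at -4.88 and -4.95, and CHGA lies off it at 1.95 and 0.05.

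Counted together in wild-type cells, 7 of the 8 tested genes were called after 6-OHDA, 4 higher (VGF, CHGA, CHGB, PCSK2) and 3 lower (PENK, SCG3, SCG5), where 52% of all genes were called, 25.8% higher and 26.2% lower. Without the 4 shallow libraries 4 remained called, PENK, VGF, CHGA and CHGB, beside 46.2% of all genes. In alpha-synuclein cells 4 of 8 were called, 3 higher (VGF, CHGB, PCSK2) and PENK lower, where 47.1% of all genes were called, 22.9% higher and 24.2% lower. The median change of the 8 genes was 0.11 in wild-type and 0.54 in alpha-synuclein cells, against 0.07 and 0.05 over all genes tested. With 6-OHDA in both genotypes, 4 of 8 differed, SCG3 higher in alpha-synuclein cells and VGF, SCG5 and CHGA lower, where 27.3% of all genes were called, 14.4% higher and 12.9% lower. Without treated alpha-synuclein replicate 4, SCG3 alone remained called there, beside 24.4% of all genes. Libraries of the 2 groups did not overlap for 5 of 8 genes after 6-OHDA in wild-type cells (45% of all genes), 4 after 6-OHDA in alpha-synuclein cells (39.1%), 3 between untreated genotypes (5.34%) and 4 between treated genotypes (24.1%). The 4 of 8 called after 6-OHDA in alpha-synuclein cells is close to the 47.1% of all genes. No count of granule genes was tested against its background share, and nothing particular to these genes is read from the counts.

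**Figure D4:**
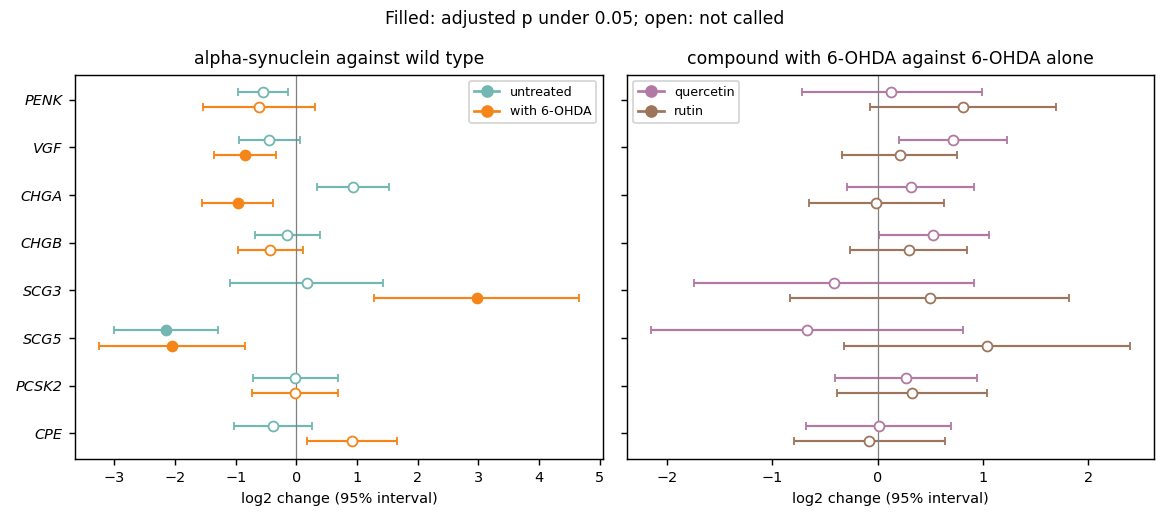
Log2 change with its 95% interval for alpha-synuclein against wild-type cells (left, untreated and with 6-OHDA) and for quercetin or rutin added to 6-OHDA in alpha-synuclein cells (right), with filled points where the adjusted p was under 0.05. On the left SCG5 is filled in both conditions, at -2.15 and -2.05, and on the right no point is filled.

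Neither quercetin nor rutin, added to 6-OHDA in alpha-synuclein cells, changed a granule gene past the threshold. Quercetin called 0 of 8 with edgeR and 0 with DESeq2, where 2.53% of all genes were called by edgeR and 5.74% by DESeq2. An unadjusted p under 0.05 was found for 1 of 8, against 16.9% of all genes. For rutin all 3 counts were 0, where edgeR called 0% and DESeq2 1.73% of all genes and 10.8% had an unadjusted p under 0.05. Libraries did not overlap for 1 of 8 genes with quercetin (13.5% of all genes) and 1 with rutin (8.7%). Both compounds share the same 4 control libraries.

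VGF came nearest with quercetin. Its levels were 32.1, 34.5 and 29 CPM under quercetin and 21.1, 17.6 and 30.4 CPM under rutin, beside 21.3, 25.1, 23.5 and 10.9 CPM with 6-OHDA alone. All 3 quercetin libraries were above all 4 control libraries, and rutin libraries were not. The VGF difference was 0.72 ± 0.26 for quercetin (interval 0.20 to 1.23, adjusted p = 0.156) and 0.21 ± 0.28 for rutin (interval -0.34 to 0.75, adjusted p = 0.853). Without treated alpha-synuclein replicate 4, the quercetin difference was 0.46 (adjusted p = 0.474).

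PENK stayed low with either compound, at 1.55, 1.18 and 1.05 CPM under quercetin and 2.57, 0.75 and 3.5 CPM under rutin, all far under the 28.9 CPM of the lowest untreated alpha-synuclein library. The PENK differences were 0.13 ± 0.44 (interval -0.72 to 0.99) and 0.81 ± 0.45 (interval -0.07 to 1.69), with adjusted p of 0.94 and 0.548. CHGA was at 19.3, 20.5 and 17.0 CPM under quercetin and 13.3, 14.6 and 18.2 CPM under rutin. These CHGA values sat within the range of the controls or less than 1 CPM above it, with differences of 0.32 ± 0.31 and -0.01 ± 0.33.

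SCG3 was at 12.0, 10.3 and 17.8 CPM under quercetin and at 29.7, 20.5 and 25.5 CPM under rutin, so rutin libraries were above both quercetin and control libraries. The rutin difference for SCG3 was nonetheless wide, 0.50 ± 0.68 (interval -0.83 to 1.82, adjusted p = 0.856). Set directly against rutin, quercetin differed in SCG3 by -0.91 ± 0.72 (interval -2.31 to 0.49, adjusted p = 0.76). SCG5 gave the smallest p between the compounds, from 1, 5 and 4 counts under quercetin and 12, 3 and 3 counts under rutin (-1.70 ± 0.72, interval -3.12 to -0.29, adjusted p = 0.48).

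Between the compounds no granule gene was called, where edgeR called 0.00602% and DESeq2 0.614% of all genes. An unadjusted p under 0.05 was found for 1 of 8, against 8.92% of all genes. Libraries of the compounds did not overlap for 1 of 8 genes, SCG3 (21.7% of all genes). The remaining intervals of quercetin against rutin were -1.52 to 0.17 for PENK, -0.04 to 1.06 for VGF, -0.32 to 0.97 for CHGA, -0.32 to 0.79 for CHGB, -0.76 to 0.64 for PCSK2 and -0.65 to 0.82 for CPE. Each of these intervals holds 0 and is wide, so they do not show that the compounds act alike. CHGB stood at 6.29 CPM ± 1.32 under quercetin and 5.03 CPM ± 1.69 under rutin, PCSK2 at 4.04 CPM ± 0.923 and 4.25 CPM ± 0.823, and CPE at 9.59 CPM ± 0.656 and 8.44 CPM ± 4.32 (n = 3 each).

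**Figure D5:**
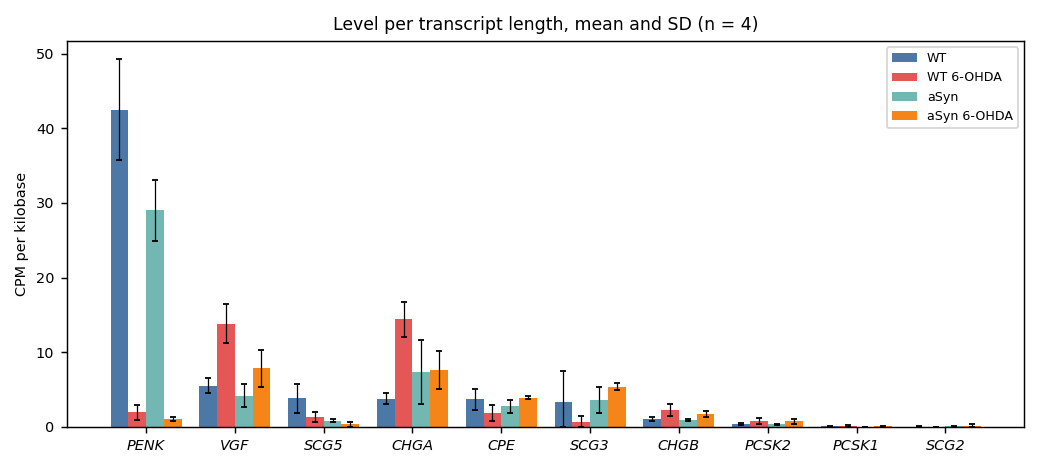
Mean CPM per kilobase of the longest coding transcript (bars, from 0) with SD (lines, n = 4) for the 10 genes in the 4 groups without a compound. PENK is the tallest in untreated cells, and VGF and CHGA are the tallest after 6-OHDA.

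Scaled by transcript length, PENK was the most abundant of the 10 genes in untreated wild-type cells, at 42.5 CPM per kilobase ± 6.79 (n = 4). VGF followed at 5.53 ± 1.04, with SCG5 at 3.80 ± 1.97, CHGA at 3.75 ± 0.765, CPE at 3.66 ± 1.44 and SCG3 at 3.38 ± 4.14, all within 1 SD of each other from SCG5 on. After 6-OHDA the order in wild-type cells was CHGA at 14.4 ± 2.32 and VGF at 13.8 ± 2.60, which did not differ beyond their spread, then CHGB at 2.29 ± 0.809 and PENK at 1.92 ± 1.06. In treated alpha-synuclein cells VGF (7.84 ± 2.48) and CHGA (7.63 ± 2.59) led again, followed by SCG3 at 5.38 ± 0.456 and CPE at 3.91 ± 0.243. PCSK1 and SCG2 were the lowest in every group, at no more than 0.135 CPM per kilobase, and group means of PCSK2 ran from 0.339 to 0.896.

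The libraries also showed which of these genes kept step. Over the 22 libraries, log2 CPM correlated most closely for CHGB with PCSK2 (Pearson r = 0.76) and for VGF with CHGA (r = 0.75), and most inversely for PENK with CHGB (r = -0.79) and with PCSK2 (r = -0.72). SCG3 and CPE had r = 0.54. All points share the split between treated and untreated libraries, the lanes and the depths, so these are descriptions.

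Among 14717 protein-coding genes, those whose log2 CPM followed PENK most closely over the 22 libraries were KCNIP2 (r = 0.979), TAGLN3 (r = 0.975) and MTUS1 (r = 0.971). For VGF they were INPP5D (r = 0.936), PCDH8 (r = 0.926) and NR4A1 (r = 0.917), and for CHGA MOB2 (r = 0.918), GTF2A1 (r = 0.904) and LZTS1 (r = 0.902). PCSK2 followed ITGA11 (r = 0.909), BIRC3 (r = 0.899) and ZRSR2 (r = 0.897), and genes close to CHGB included AC067752.1 (r = 0.882) and ZNF667 (r = 0.881). The closest values were lower for SCG3 (WDR26, PIGW and GAR1, r = 0.82 to 0.798), SCG5 (among them PRKCB and NBL1, r = 0.808 and 0.802) and CPE (RFTN1, GRIP1 and PLCL2, r = 0.815 to 0.773).

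Other genes of peptide secretion were read from 5 lists with 144 entries, 135 of them in the table. The shares of all genes called, 25.8% higher and 26.2% lower in wild-type and 22.9% and 24.2% in alpha-synuclein cells, are the background for the counts that follow, and nothing particular to a list is read from the counts. The list of neuropeptide precursors also holds genes of other secreted proteins, such as NPTX1 and IGF2. Of its 18 tested genes, 7 were called higher and 4 lower after 6-OHDA in wild-type cells (median change 0.32, against 0.07 over all genes). In alpha-synuclein cells 6 were called higher and 5 lower (median 0.08, against 0.05). ADM2, an intermedin precursor, rose from 11.1 to 76.3 CPM in wild-type cells (2.79 ± 0.19, adjusted p = 9.75e-11), and NPPC, the precursor of C-type natriuretic peptide, from 1.53 to 33.9 CPM (4.56 ± 0.51, adjusted p = 1.36e-07). The pentraxin gene NPTX1 rose by 2.85 ± 0.25, and the growth factor gene IGF2 fell by 0.73 ± 0.09. In alpha-synuclein cells ADM2 rose by 2.19 ± 0.17, NPPC by 4.03 ± 0.48 and ADM, the adrenomedullin precursor, from 0.0172 to 2.69 CPM, while IGF2 fell by 1.07 ± 0.09.

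Processing enzymes beyond the convertases above were divided. Of 15 tested, 5 were called higher and 6 lower in wild-type cells (median -0.24), and 5 each way in alpha-synuclein cells (median -0.16). PAM, which amidates the ends of peptides, fell from 596 to 171 CPM in wild-type cells (-1.79 ± 0.13, adjusted p = 3.22e-10) and from 587 to 229 CPM in alpha-synuclein cells (-1.35 ± 0.13, adjusted p = 2.2e-08). The convertase PCSK5 rose from 55.8 to 274 CPM (2.28 ± 0.37) and from 58.3 to 241 CPM (2.05 ± 0.36). Its relative PCSK6 fell by 0.73 ± 0.15 in wild-type cells, and the protease gene CTSB fell in both genotypes (-0.79 ± 0.11 and -0.93 ± 0.11). The gene of carboxypeptidase M, whose symbol is also CPM, rose by 1.58 ± 0.25 in alpha-synuclein cells.

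Of 47 tested genes of granule biogenesis, membrane and release, 14 were called higher and 17 lower in wild-type cells (median 0.00), and 10 and 16 in alpha-synuclein cells (median -0.04). CYB561, the electron carrier of granule membranes, rose from 16.2 to 76.8 CPM in wild-type cells (2.25 ± 0.16, adjusted p = 1.63e-10), and PTPRN, a granule membrane protein also known as IA-2, from 50.1 to 247 CPM (2.31 ± 0.21, adjusted p = 5.98e-09). RIMBP2, a presynaptic scaffold, fell by 1.23 ± 0.11. In alpha-synuclein cells RIMBP2 (-1.26 ± 0.10), TMEM163 (-2.02 ± 0.17), CLSTN3 (-0.92 ± 0.09) and RAB3A, a GTPase of secretory vesicles (-1.10 ± 0.11), fell. The interaction was called for CYB561 at -1.10 ± 0.21 (adjusted p = 0.00139), among 3 genes higher and 7 lower of the 47. Of all genes, 21.6% were called. As for CHGA, the CYB561 interaction cannot be told apart from lane. It was not read without treated alpha-synuclein replicate 4.

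Transcription factors tied to granule genes were called in both directions, 4 higher and 6 lower of 17 in wild-type cells (median -0.06) and 5 and 7 in alpha-synuclein cells (median -0.16). ATF3, a stress-induced member of the ATF family, rose from 1.14 to 49.3 CPM in wild-type cells (5.41 ± 0.37, adjusted p = 1.37e-10) and from 2.34 to 26.6 CPM in alpha-synuclein cells (3.42 ± 0.30, adjusted p = 1.02e-08). CREM, which binds the CRE, rose by 1.60 ± 0.11 and 1.37 ± 0.10 in the 2 genotypes, and NEUROD1 by 1.28 ± 0.10 and 1.09 ± 0.10. ST18 fell, with changes of -3.34 ± 0.27 and -2.36 ± 0.24. The ATF3 response differed between genotypes (-1.99 ± 0.51, adjusted p = 0.00831). This difference cannot be told apart from lane and was not read without treated alpha-synuclein replicate 4. Of the 17, the interaction called 1 higher and 1 lower, where 21.6% of all genes were called. Among the 4 tested receptors and binding proteins for opioid peptides, OPRM1, the mu receptor, rose from 6.93 to 11.8 CPM (0.79 ± 0.20, adjusted p = 0.00262) and from 6.99 to 12.3 CPM (0.77 ± 0.19, adjusted p = 0.00192), and OGFR fell by 0.63 ± 0.12 in alpha-synuclein cells (adjusted p = 1.49e-04).

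With 6-OHDA in both genotypes, 27.3% of all genes differed. The calls between genotypes were 1 higher and 1 lower of the 18 genes of the precursor list and 3 and 3 of 15 enzymes. They were 2 and 8 of 47 granule genes, 1 and 1 of 17 transcription factors and 0 of the 4 opioid genes. PTPRN2 was lower in alpha-synuclein cells (-0.83 ± 0.15, adjusted p = 3.61e-04), CYB561 at -0.68 ± 0.15 and the convertase gene FURIN at -0.45 ± 0.10. Such differences between treated genotypes cannot be told apart from lane. For list genes they were not read without treated alpha-synuclein replicate 4. Without 6-OHDA no gene of the 5 lists was called between genotypes. With quercetin, where 2.53% of all genes were called, 4 of 47 granule genes and 2 of 15 enzymes were called lower. Of 17 transcription factors 1 was higher, and none of the 18 genes of the precursor list or 4 opioid genes was called. The granule genes were PTPRN at -0.89 ± 0.21 (adjusted p = 0.03), HID1 at -0.66 ± 0.16, SYT5 at -0.44 ± 0.10 and ATP6V0A1 at -0.29 ± 0.06. The enzymes were ERAP1 at -0.95 ± 0.21 and CTSL at -0.82 ± 0.19, and CREM was higher at 0.40 ± 0.11 (adjusted p = 0.0454). These calls were not read without treated alpha-synuclein replicate 4, a control library here. Without it the genes called for quercetin went from 420 to 84, and with only the groups compared to 2. Rutin, and quercetin against rutin, gave no call in these lists.

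Markers of other cell types were read beside the neuron list. Of 12 dopaminergic markers, 8 were above 1 CPM in untreated cells, with summed levels of 399 to 509 CPM, and LMX1A, FOXA2, PITX3 and ALDH1A1 were at 0 in wild-type libraries. After 6-OHDA the dopaminergic sum was 194 to 211 CPM in wild-type and 112 to 143 CPM in alpha-synuclein libraries. Of the 8 tested, 2 were called lower, 1 higher and 5 not called in wild-type cells. In alpha-synuclein cells 4 were called lower, 1 higher and 3 not called. Over all genes, 26.2% were called lower and 25.8% higher in wild-type cells, and 24.2% and 22.9% in alpha-synuclein cells. Of 8 markers of adrenal chromaffin and neuroendocrine cells, which are rich in granins, 3 were above 1 CPM in untreated cells. The 8 summed to 462 to 551 CPM without and 411 to 456 CPM with 6-OHDA in wild-type libraries. In alpha-synuclein libraries that sum was 509 to 581 CPM without and 379 to 533 CPM with 6-OHDA. Of the 4 tested, 1 was called higher and 1 lower in wild-type cells, and 3 lower in alpha-synuclein cells. Cycling and progenitor markers summed to 289 to 405 and 318 to 363 CPM in wild-type libraries and to 230 to 341 and 178 to 247 CPM in alpha-synuclein libraries. Oligodendrocyte lineage markers summed to 51.7 to 86.5 CPM in treated wild-type libraries, under every untreated one (up to 140 CPM), and went from 125 to 160 CPM down to 43.7 to 66.3 CPM in alpha-synuclein libraries. Microglia markers, of which 2 of 6 were above 1 CPM, summed to 4.56 to 6.7 and 8.17 to 14.4 CPM in wild-type and to 5.44 to 7.2 and 7.04 to 14 CPM in alpha-synuclein libraries. Astrocyte sums (46.7 to 71.1 CPM over these 4 groups) overlapped between treated and untreated libraries of each genotype. Fibroblast sums overlapped in wild-type libraries (17.2 to 32.8 and 26 to 27.9 CPM) and were 25.6 to 33.1 CPM without and 19.7 to 24.8 CPM with 6-OHDA in alpha-synuclein libraries. The part of any of these shifts in the results above was not tested.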

How the data were processed

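Whole-number estimated counts per Ensembl gene, not normalized, were deposited by the authors for 22 libraries of polyadenylated RNA. Per the submitters' processing notes, the tools were Trimmomatic 0.38 and kallisto 0.46.2 and the builds GRCh38 and hg38. The step from transcripts to genes is not stated, and kallisto splits reads among like transcripts. Columns were matched to samples by library name, and groups and replicate numbers come from the titles. In R 4.3.3, edgeR 4.0.16 (filterByExpr minimum count 10, TMM, quasi-likelihood test) was fitted to all 22 libraries with 6 group means. This tested 16601 genes and set aside 0.174% of counts. A gene was called where its p, adjusted over all of them by Benjamini and Hochberg, was under 0.05. SEs are the log2 change over the root of F, and intervals given as 95% are 1.96 SE on either side. That normal multiplier makes them somewhat narrower than the quasi-likelihood test implies. CHGB with quercetin, for example, had an interval of 0.01 to 1.06 beside an unadjusted edgeR p of 0.0605. Floors cover counting error only. The scripts were tested on simulated data. Replicate pairs differed beyond sampling noise (chi-square per degree of freedom 2.87 to 26.2), and all were kept.

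The genes and lists were chosen with earlier results of these data known. Named list genes are the called members with the 4 smallest adjusted p per list and comparison, of which the text gives a part, and called genes of lists with 5 or fewer tested. Genes like each granule gene are the 3 with the highest Pearson r. With each group's mean subtracted, log2 CPM of same-numbered libraries correlated at -0.14 to 0.063, so numbers were not taken as pairs. Alternatives were DESeq2 1.42.0, other scalings, no filter, only the groups compared, a replicate block and libraries left out. Leaving out the 4 libraries under 3 M (mega) counts was chosen after seeing the data. A check of the overexpressed gene and a few genes that these rules name are not reported here.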

Additional observations from a re-analysis of the deposited data

Results flagged for a closer look

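CHGA in untreated alpha-synuclein replicate 1 stood at 28.3 CPM, far above the other 3 libraries of its group at 10.3 to 11.1 CPM. PCSK2 in treated wild-type replicate 4 stood at 6.47 CPM, above the other 3 at 2.33 to 3.01 CPM, from 13 counts in the shallowest library. PCSK1 in treated wild-type replicate 2 stood at 1.51 CPM, from 5 counts, where the other 3 libraries had 0. These are 3 of 35 groups of 4 libraries examined with the Dixon test for outliers. Chance alone picks out about 1 in 20 such groups where values are normally spread, which low counts are not. With 3 libraries at 0, as for PCSK1, any value above the floor of 3 counts would be picked out. The CHGA response to 6-OHDA differed between genotypes by -1.90 on the log2 scale (alpha-synuclein minus wild-type change, edgeR interaction), a comparison in which lane and group cannot be told apart.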

How the results depend on the processing

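Of 1054 recomputed changes of the 8 tested genes, 947 kept their direction and their side of the threshold, 40 lost a call, 15 gained one and 52 changed sign, and no called change reversed. The causes were not tested. PENK stayed called in both genotypes after 6-OHDA under every alternative (-5.54 to -4.31 and -5.11 to -4.72), as did VGF, CHGA and CHGB in wild-type cells and the CHGA interaction.

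Counts of granule genes called moved as follows, with all genes called under the same setting in brackets as a share of 16601. Between genotypes in untreated cells the 1 call became 0 with DESeq2 (1.32%), where SCG5 had no adjusted p. It became 0 with only the groups compared (0.139%) and 0 without the 2 libraries with several barcode numbers (0.0663%). The interaction gave 2 with DESeq2 (24%), 2 without the filter on low counts (18.4%) and 2 without those 2 libraries (11.9%). 6-OHDA in alpha-synuclein cells gave 2 without them (35.3%). Without the 4 libraries under 3 M counts, 6-OHDA in wild-type cells gave 4 (46.2%) and alpha-synuclein in 6-OHDA cells gave 1 (20.5%). Leaving out 1 library at a time gave 4 to 8 for 6-OHDA in wild-type cells (46.3% to 53.3%), with 4 without untreated replicate 2 (49.4%). Between genotypes in untreated cells it gave 0 to 1 (0.199% to 1.44%). For the interaction it gave 1 to 3 (17.2% to 25.9%), with 3 without untreated wild-type replicate 4 (17.3%). For alpha-synuclein in 6-OHDA cells it gave 1 to 4 (22.5% to 26.3%), with 1 without treated alpha-synuclein replicate 4 (24.4%).

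Sign changes all concerned uncalled values. Without the filter on low counts PCSK2 was 0.01 between untreated and 0.04 between treated genotypes. Without the 2 libraries with several barcode numbers CHGA was -0.31 for 6-OHDA in alpha-synuclein cells. Without the 4 shallow libraries the values were -0.05 for that CHGA change, 0.01 for PCSK2 between treated genotypes, 0.51 and -0.07 for the PENK and SCG5 interactions, 0.21 for CPE with rutin, and 0.03 for PCSK2 and -0.17 for CPE in quercetin against rutin. With 1 library left out, ranges that crossed 0 were, between untreated genotypes, SCG3 -0.26 to 1.37, CHGB -0.28 to 0.02 and PCSK2 -0.19 to 0.33. They were -0.64 to 0.27, -0.52 to 0.47 and -0.35 to 0.34 for the PENK, SCG5 and PCSK2 interactions, -0.10 to 0.50 for CHGA with 6-OHDA in alpha-synuclein cells and -0.24 to 0.33 for PCSK2 between treated genotypes. For quercetin they were PENK -0.10 to 0.31, PCSK2 -0.03 to 0.53 and CPE -0.03 to 0.06, for rutin VGF -0.05 to 0.37, CHGA -0.29 to 0.15 and CPE -0.44 to 0.18, and for quercetin against rutin PCSK2 -0.24 to 0.08 and CPE -0.16 to 0.45.

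With the replicate block, 1 call of a granule gene was lost, SCG3 after 6-OHDA in wild-type cells (-1.92, adjusted p = 0.0756), CPE with quercetin became -0.10, and the count of all genes called for quercetin went from 420 to 120. With each group's mean subtracted, libraries correlated best with their own number in at most 2 of 4 pairs.

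The background shares moved too. Genes called between untreated genotypes numbered 108, against 219 with DESeq2, 23 with only the groups compared, 11 without the libraries with several barcode numbers and 33 to 239 with 1 library left out. For quercetin 420 became 953 with DESeq2, 2 with only the groups compared, 230 and 273 without the barcode and the shallow libraries, and 26 to 896 with 1 left out. For rutin 0 became 288 with DESeq2, 2 with RLE scaling, 4 without the filter and 0 to 143 with 1 left out. Quercetin against rutin went from 1 to 0.614% of genes with DESeq2, 30 genes with upper-quartile scaling, 8 without the filter, 19 with only the groups compared, 0 without the shallow libraries and 0 to 58 with 1 left out. The interaction went from 3594 to 1978 without the barcode libraries. Upper-quartile scaling moved the median of all genes by 0.138 and 0.125 for 6-OHDA in wild-type and alpha-synuclein cells, and the calls from 4277 higher and 4357 lower to 5340 and 3600, and from 3799 and 4021 to 4955 and 3166. It changed the sign of no granule gene. Depth limits SCG2, PCSK1 and treated SCG5, whose counts were near 3 per library.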
